A study of Arabidopsis thaliana with 30 samples.

Results

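The response of Arabidopsis leaves to a hormone and inhibitor mixture was measured after 8 h of incubation, as the difference between 3 stimulus libraries and 3 mock libraries. These 6 libraries were taken from a series of 30 by their labelled treatment and hour, with no measured value in the choice. Both groups were detached leaves 1 and 2 of wild-type Columbia-0 seedlings, 10 d old, grown on soil in continuous light, surface sterilised with bleach and shaken at 21 °C. The stimulus group was kept in a salt buffer to which kinetin, a cytokinin, at 0.5 µg/mL, 2,4-D, an auxin analogue, at 2.5 µg/mL, and bikinin at 20 µM had been added. The mock group was kept in the buffer alone, so both groups also shared detachment, 5% glucose and 0.2% DMSO. Each sample pooled about 18 to 20 whole leaves, so every value is an average over all leaf cell types. The labels call the 3 libraries of a group biological replicates without saying what separated them. The p-values therefore cover only the spread among libraries of the same group, which may be technical. That spread was estimated over all 30 libraries of the series, not from the 6 at 8 h alone. The design names a transdifferentiation treatment, and asks which RNAs change in abundance with it.

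Auxin acts by having the Aux/IAA repressors degraded, which frees the ARF transcription factors to switch on early targets, among them the Aux/IAA, GH3 and SAUR genes themselves. Cytokinin acts through a phosphorelay whose early targets, the type-A response regulators, feed back on the pathway. Bikinin inhibits GSK3-like kinases such as BIN2, which hold brassinosteroid signalling off; when that signalling is on, the genes for brassinosteroid synthesis are repressed. In Arabidopsis leaves, such a mixture is used to turn mesophyll cells toward procambium, xylem and phloem.

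The 8 h libraries held 15311257 to 22298974 counts in the stimulus group and 19074614 to 20364112 in the mock group, of which 32.3 to 35.6% fell on mitochondrial loci. Replicate 3 stood apart in both groups. Plastid loci took 0.723% of its counts with stimulus and 0.637% in mock, against 1.76 to 2.96% in the other 2 stimulus libraries and 2.82 to 2.95% in the other 2 mock libraries. Counts of the lists are therefore also given with the replicate number as a block, which compares libraries of the same number, and for most lists on replicates 1 and 2 alone. All 11 mesophyll markers of a list of leaf genes were detected. Of 12 root markers, 7 had at most 3 counts in each of the 6 libraries, including 4 with no count in any.

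The stimulus changed the abundance of 2722 of 21052 genes tested at 8 h. Of these, 1376 rose, which is 6.54% of the genes tested, and 1346 fell, which is 6.39% (edgeR quasi-likelihood test, Benjamini-Hochberg adjusted p under 0.05). More than 2-fold changes made up 709 of the rises and 700 of the falls. The smallest change that passed was 0.28 on the log2 scale, and the median log2 fold change over all genes was 0.02. Among the called genes, 2704 (99.3%) moved the same way in all 3 same-numbered pairs, against 11783 (56%) of all genes. The calls came from these same libraries, so the higher share follows in large part from the choice and is no separate support. With the replicate block 3617 genes rose (17.2%) and 3360 fell (16.0%), and all 2722 genes were again called in the same direction. On replicates 1 and 2 alone 3836 of 21066 genes rose (18.2%) and 3538 fell (16.8%), with 2630 of the 2722 among them. Without stimulus replicate 3 alone, 961 genes rose and 614 fell. The counts of every list below are to be read against the shares of all genes under the same fit.

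**Figure D1:**
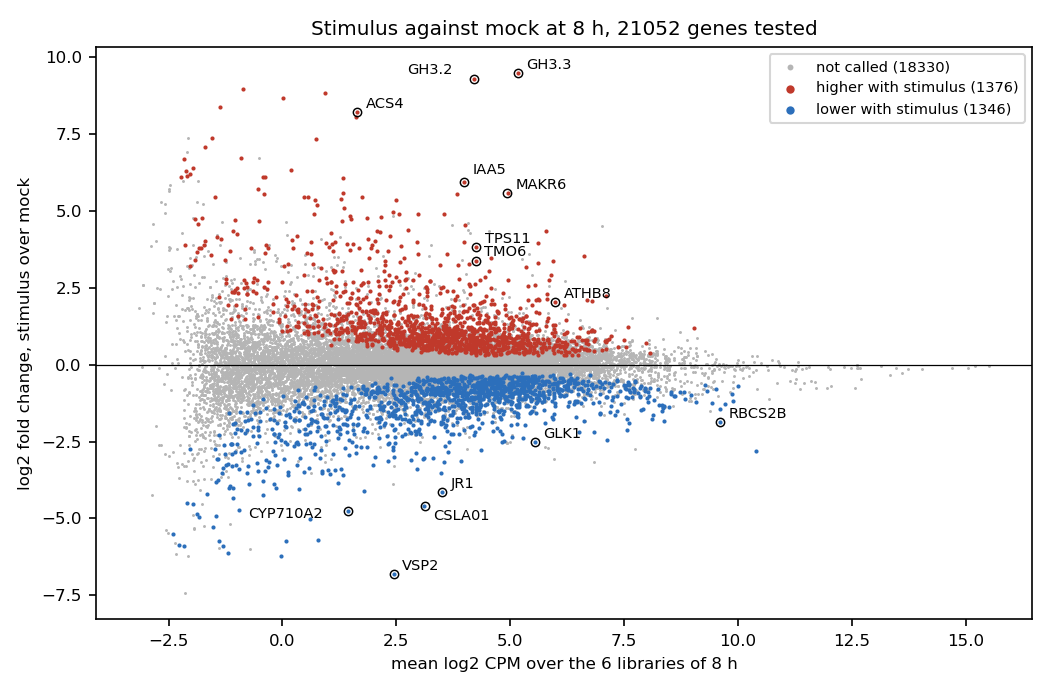
Log2 fold change of stimulus over mock at 8 h against the mean log2 CPM (counts scaled to library size) of the 6 libraries, for 21052 tested genes. Red points are the 1376 genes called higher and blue points the 1346 called lower; the auxin conjugation genes GH3.3 and GH3.2 lie at the top and the jasmonate marker VSP2 is the lowest of the labelled genes.

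Among called genes with a mean log2 CPM of at least 1 and 1 direction in all 3 pairs, the 10 largest rises were led by the GH3 genes. GH3.3, which joins the auxin IAA to amino acids, had 1144, 1267 and 988 CPM in the stimulus libraries and 1.87, 2.66 and 0.173 CPM in the mock libraries. The groups were far apart, and the mock value of replicate 3 was the lowest (log2 fold change 9.47 ± 1.01, SE, adjusted p = 1.1e-06). Its relative GH3.2 had 512, 531 and 357 CPM with stimulus and 0.657, 1.24 and 0.289 CPM in mock (9.29 ± 0.70, adjusted p = 6.22e-09). ACS4 encodes ACC synthase, which makes the precursor of ethylene. It had 38.3, 35.6 and 52.7 CPM with stimulus, against 0.0506, 0.19 and 0.173 CPM in mock, which are 1 to 4 counts a library (8.19 ± 0.57, adjusted p = 2.03e-09). The remaining 7 were AT5G62280, annotated only as a DUF1442 protein, the repressors IAA30 and IAA5, the membrane-associated kinase regulator MAKR6, the SAUR genes AT2G18010 and SAUR26, and the cytokinin-activating enzyme LOG3. MAKR6 had the smallest standard error of the 10, with 221, 192 and 229 CPM with stimulus and 3.19, 5.99 and 4.28 CPM in mock (5.57 ± 0.25, adjusted p = 9.96e-13). All 10 stayed called when any of the 6 libraries was left out.

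Under the same limit on level, VSP2, CYP710A2 and CSLA01 had the deepest of the 10 falls chosen. Among called list members of lower level, VSP1 and ORA47, described with their list, fell further than CYP710A2 but less than VSP2. Called genes of lower level outside the lists were not ranked here. In all, 25 called genes fell more than 16-fold, with a group of no count taken as 3 counts. CUC3 had no count with stimulus, so only a lower limit of its fall is given, with its list. VSP2, a vegetative storage protein induced by jasmonate, had 1.07, 0.559 and 0.0655 CPM with stimulus, against 96.6, 82.3 and 24.7 CPM in mock (-6.81 ± 1.08, adjusted p = 0.000174). Both values of replicate 3 were the lowest of their group, and no stimulus library reached a mock library. CYP710A2, a desaturase of plant sterols, had 0.767, 0.559 and 0.328 CPM with stimulus and 22.5, 21.1 and 3.24 CPM in mock (-4.77 ± 0.93, adjusted p = 0.00144). CSLA01, a member of the family that makes mannan backbones, had 2.86, 1.89 and 0.852 CPM with stimulus and 50, 23.7 and 63.6 CPM in mock (-4.58 ± 0.68, adjusted p = 7.32e-05). Next came JR1, a jasmonate-responsive lectin, and AT5G22580, ROT3, AT2G40435, ATCSLA15, AT5G05600 and CYP79F1, at -4.15 to -3.42. JR1 lost its call without stimulus replicate 1 (adjusted p = 0.052) or stimulus replicate 3 (0.0813), and AT2G40435 without stimulus replicate 3 (0.0678).

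**Figure D2:**
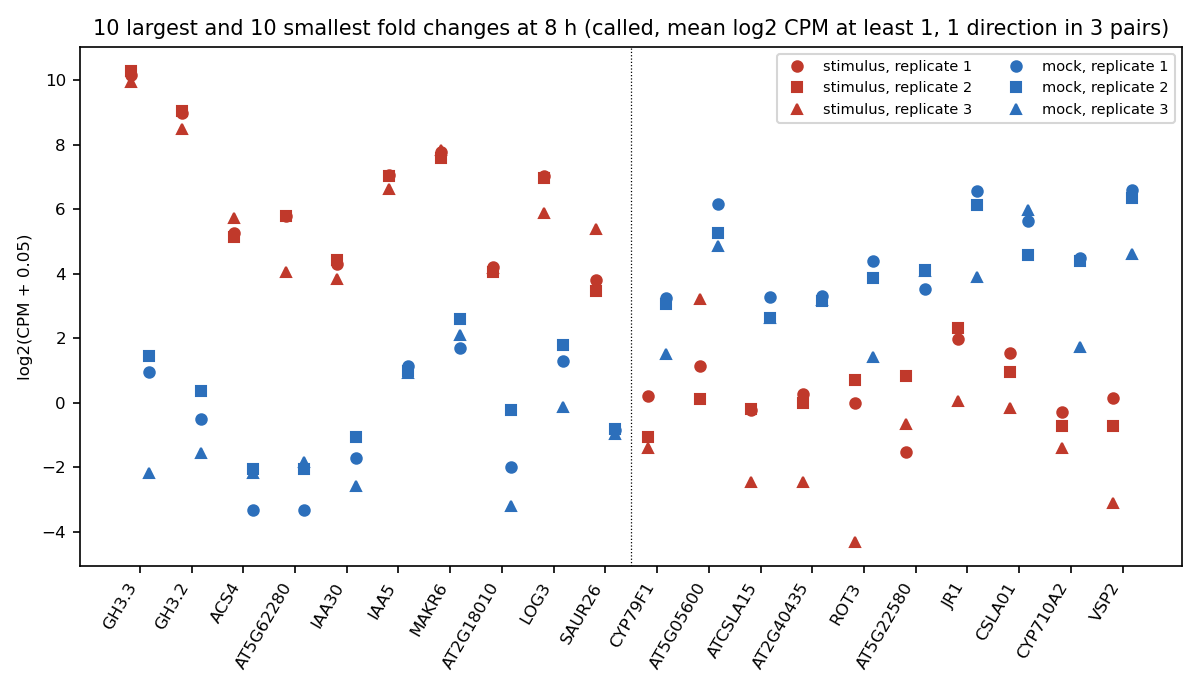
Level of the 10 genes with the largest and the 10 with the smallest log2 fold change at 8 h, among called genes with a mean log2 CPM of at least 1 and 1 direction in all 3 pairs, as log2(CPM + 0.05), in each stimulus library (red, left of each gene's tick) and each mock library (blue, right). Marker shapes are replicates 1, 2 and 3; for every gene shown the 3 stimulus libraries lie all above or all below the 3 mock libraries, and GH3.3 has 988 to 1267 CPM with stimulus and 0.173 to 2.66 CPM in mock.

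Of the genes under the same limits and not among those 20, the 5 with the smallest p-values in each direction were also taken. AT1G29500, a SAUR gene, had 13.2, 14.3 and 15.1 CPM with stimulus and 1.47, 1.57 and 1.45 CPM in mock (3.24 ± 0.17, adjusted p = 1.73e-11). ATHB8, a class III homeodomain factor of the procambium, had 127, 131 and 127 CPM with stimulus, against 30.5, 33.5 and 29.7 CPM in mock (2.04 ± 0.13, adjusted p = 2.68e-10). TMO6, CKX6 and the XRI1-like gene AT2G01990 were the other rises chosen this way. Among the falls, GTR1, a transporter that moves glucosinolates, had 26.1, 28.6 and 30.7 CPM with stimulus and 130, 86.3 and 100 CPM in mock (-1.89 ± 0.17, adjusted p = 1.5e-07). CLH1, a chlorophyllase, had 11.3, 12.9 and 12.4 CPM with stimulus and 79.6, 63 and 64.5 CPM in mock (-2.49 ± 0.25, adjusted p = 5.75e-07). AT4G16447, AT3G50270 and AT1G78020 completed the falls, and none of the 10 lost its call without any single library.

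The Aux/IAA genes encode the repressors of auxin signalling. Of 26 tested Aux/IAA genes 15 rose and none fell, against 6.54% and 6.39% of all genes, and the median log2 fold change of the 26 was 1.28 (all genes 0.02). With the replicate block 18 rose and 1 fell, and on replicates 1 and 2 alone 20 rose and 2 fell. IAA5 had 134, 131 and 99.2 CPM with stimulus and 2.17, 1.95 and 1.85 CPM in mock (5.92 ± 0.37, adjusted p = 2.68e-10). IAA30 had 19.9, 21.3 and 14.4 CPM with stimulus and 0.253, 0.428 and 0.116 CPM in mock (6.06 ± 0.49, adjusted p = 2.45e-08). IAA32 followed at 5.09 ± 0.69 (adjusted p = 2.59e-05). The response was uneven across the family, since fold changes ran between -1.25 and 6.06 and 11 members did not pass the test.

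Some GH3 enzymes and auxin carriers rose. Among 7 tested GH3 genes 3 rose and none fell (median 2.45), and 5 rose and 1 fell both with the block and on replicates 1 and 2 alone. GH3.1 had 25.3, 21.4 and 6.09 CPM with stimulus and 0.152, 0.143 and 0 CPM in mock, where it had 3 counts or fewer in each library (7.34 ± 0.93, adjusted p = 1.23e-05). Of 16 tested genes for auxin transport 6 rose and none fell (median 0.91; 10 and 0 with the block and also on replicates 1 and 2). LAX2, an influx carrier of the vasculature, had 136, 157 and 80.8 CPM with stimulus and 15.8, 15.4 and 10.2 CPM in mock (3.17 ± 0.38, adjusted p = 6.48e-06). WAG2, a kinase that acts on auxin transport, rose by 3.79 ± 0.66 on the log2 scale (adjusted p = 0.000454). In LAX2 and WAG2 replicate 3 was the lowest of both groups, and the groups did not overlap.

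Auxin synthesis had a single call. TAA1, the enzyme of the first step from tryptophan, rose among 7 tested genes (median -0.51; 2 rose and none fell with the block, and 1 rose and 2 fell on replicates 1 and 2). TAA1 had 20.7, 26.5 and 52.3 CPM with stimulus and 10.6, 8.09 and 20.3 CPM in mock (1.35 ± 0.42, adjusted p = 0.0352), and its adjusted p was 0.119 without mock replicate 1, 0.153 without mock replicate 2 and 0.256 without stimulus replicate 3. Of 4 tested factors of the LBD family 2 rose. LBD4 had 35.5, 34.6 and 20.3 CPM with stimulus and 1.26, 1.14 and 2.02 CPM in mock (4.36 ± 0.41, adjusted p = 2.32e-07). LBD3 had 59 counts in the 3 stimulus libraries and 3 in the 3 mock libraries (adjusted p = 0.00568), a ratio of 18.4 with an exact 95% counting interval of 6.01 to 91.9.

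Cytokinin feedback genes rose in replicates 1 and 2, while mock replicate 3 already held high levels of several of them. Of 14 tested type-A response regulators and cytokinin oxidases 5 rose and none fell (median 2.15), with the block 9 rose and 1 fell, and on replicates 1 and 2 alone 10 rose and 1 fell. The median differences in pairs 1, 2 and 3 were 4.17, 4.01 and 0.79. ARR5 had 12.2, 10.2 and 26.5 CPM with stimulus, against 0.152, 0.0476 and 3.58 CPM in mock (3.73 ± 0.81, adjusted p = 0.00341). The response regulators ARR7, ARR4 and ARR6, chosen after their values were seen, showed the same split. ARR7 had 63.4, 51.8 and 62 CPM with stimulus and 1.97, 1.05 and 32.1 CPM in mock (adjusted p = 0.099, and 0.00177 with the block). ARR4 had 56.6, 54.1 and 82.5 CPM with stimulus and 1.77, 1.81 and 50.6 CPM in mock (adjusted p = 0.332, and 0.00414 with the block). ARR6 had 7.33, 7.05 and 16 CPM with stimulus and 0, 0.0951 and 6.65 CPM in mock (adjusted p = 0.199, and 0.00436 with the block). The stimulus values lay above the mock values in each of these genes, and without mock replicate 3 the list had 8 members that rose. What set mock replicate 3 apart was not tested.

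Among the oxidases that break cytokinin down, CKX6 and CKX3 had positive differences in all 3 pairs. CKX6 had 68.2, 77.1 and 49.5 CPM with stimulus and 1.11, 2.19 and 3.35 CPM in mock (4.88 ± 0.33, adjusted p = 1.34e-09). CKX3 had 8.14, 9.76 and 8.19 CPM with stimulus and 0.152, 0 and 0.462 CPM in mock (5.44 ± 0.65, adjusted p = 6.07e-06). Both kept the call without any single library. Among 7 tested genes of cytokinin synthesis 2 rose (median 0.06; 3 rose and 1 fell with the block, 4 and 0 on replicates 1 and 2). LOG3, which releases active cytokinin from its nucleotide, had 132, 127 and 58.6 CPM with stimulus and 2.38, 3.42 and 0.867 CPM in mock (5.56 ± 0.92, adjusted p = 0.00026). For its relative LOG5 the groups overlapped, with 3.2, 3.1 and 1.18 CPM with stimulus and 0.657, 1.19 and 0.116 CPM in mock, and the adjusted p of 0.0418 became 0.106 to 0.139 without mock replicate 1, mock replicate 3, stimulus replicate 1 or stimulus replicate 2. The locus of ARR8 held counts far above those of its relatives and its value is uncertain.

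Brassinosteroid synthesis genes were lower with stimulus. Of 10 tested genes 3 fell and none rose, the median log2 fold change was -2.34, and 8 fell with the block as well as on replicates 1 and 2 alone. Without stimulus replicate 3 alone 1 member fell. The cytochrome ROT3 had 0.937, 1.59 and 0 CPM with stimulus and 21.2, 14.5 and 2.6 CPM in mock (-3.84 ± 0.97, adjusted p = 0.0107). DWF4, which catalyses the rate-limiting hydroxylation, had 5.88, 4.82 and 0.328 CPM with stimulus and 34.5, 34 and 25.4 CPM in mock (-3.06 ± 0.85, adjusted p = 0.0188, and 0.0776 without stimulus replicate 3). Stimulus replicate 3 was the lowest of its group in both. The same held for CPD and BR6OX2, chosen after their values were seen. CPD had 13.2, 12.8 and 1.38 CPM with stimulus and 34.6, 39.3 and 40.7 CPM in mock (adjusted p = 0.0805, and 0.00338 with the block). BR6OX2 had 2.64, 5.16 and 0 CPM with stimulus and 29.1, 26.6 and 23.5 CPM in mock (adjusted p = 0.0594, and 0.00356 with the block). In 7 of the 10 genes all stimulus libraries lay below all mock libraries, which held for 15.6% of all genes. DWF1, an early step of the pathway, fell by 0.67 on the log2 scale (SE 0.19, adjusted p = 0.0203), but not without mock replicate 3 (0.137) or stimulus replicate 3 (0.111), and its locus overlaps another on the same strand.

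Growth-promoting helix-loop-helix factors and wall-loosening enzymes, many of them brassinosteroid or auxin targets, rose in part. Of 25 tested members 7 rose and 1 fell (median 0.94), with the block 14 rose and 3 fell, and on replicates 1 and 2 alone 15 rose and 4 fell. PRE1, a small helix-loop-helix protein that promotes elongation, had 5.92, 8.73 and 7.21 CPM with stimulus and 0.303, 0.333 and 0.925 CPM in mock (3.82 ± 0.37, adjusted p = 3.84e-07). BEE1 had 13.1, 10.7 and 40.1 CPM with stimulus and 0.202, 0.713 and 3.12 CPM in mock (4.00 ± 0.94, adjusted p = 0.00636). XTH19, which cuts and rejoins xyloglucan, had 126, 132 and 281 CPM with stimulus and 24.7, 36.7 and 10.3 CPM in mock (2.91 ± 0.64, adjusted p = 0.00371). Replicate 3 had the highest stimulus value of BEE1 and XTH19 and the lowest mock value of XTH19. The 1 member that fell, XTH24, had 0.682, 1.12 and 0.393 CPM with stimulus and 3.44, 1.85 and 1.21 CPM in mock, and its adjusted p of 0.0366 rose to 0.0564 to 0.212 without mock replicate 1, mock replicate 2, stimulus replicate 1 or stimulus replicate 3. Of 25 genes for primary wall polymers none passed the test by edgeR (median 0.03; 5 at an unadjusted p under 0.05), DESeq2 called 1 lower, and with the block 3 rose and 1 fell.

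Ethylene precursor synthesis was among the strongest single steps. ACS5 had 1673 counts in the 3 stimulus libraries and 3 in the 3 mock libraries (adjusted p = 2.64e-08), a ratio of 523 with an exact 95% counting interval of 179 to 2540. ACS8 had 42.2, 39 and 12.6 CPM with stimulus and 0.91, 1.38 and 0.694 CPM in mock (4.96 ± 0.61, adjusted p = 7.67e-06). Both genes encode ACC synthases, as does ACS4. Over the 18 tested ethylene genes the median was 0.51. In all 5 rose and none fell, or 8 and none with the block, and 10 and none on replicates 1 and 2. The count of rises was 3 without mock replicate 2, mock replicate 3, stimulus replicate 1 or stimulus replicate 3, and without stimulus replicate 2 alone 1 member fell.

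Gibberellin genes changed in both directions. Among 12 tested 3 rose and 1 fell (median 0.64), with 4 and 2 with the block and 5 and 2 on replicates 1 and 2. Over all genes 6.54% rose and 6.39% fell, or 17.2% and 16.0% with the block. GA2OX8, which inactivates gibberellin, had 8.82, 7.61 and 22.1 CPM with stimulus and 1.52, 1.05 and 0.867 CPM in mock (3.47 ± 0.65, adjusted p = 0.000985). GA2OX6, of the same function, rose by 1.61 ± 0.37 on the log2 scale (adjusted p = 0.00552). GA20OX1, which makes gibberellin, had 7.16, 7.53 and 2.1 CPM with stimulus and 0.607, 0.476 and 1.56 CPM in mock (2.68 ± 0.69, adjusted p = 0.012), but 0.0577 and 0.0649 without mock replicate 1 and mock replicate 2. The receptor gene GID1A fell by 1.31 on the log2 scale (SE 0.40, adjusted p = 0.0348), and missed the threshold without mock replicate 1, mock replicate 2, stimulus replicate 2 or stimulus replicate 3 (0.0625 to 0.174).

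**Figure D3:**
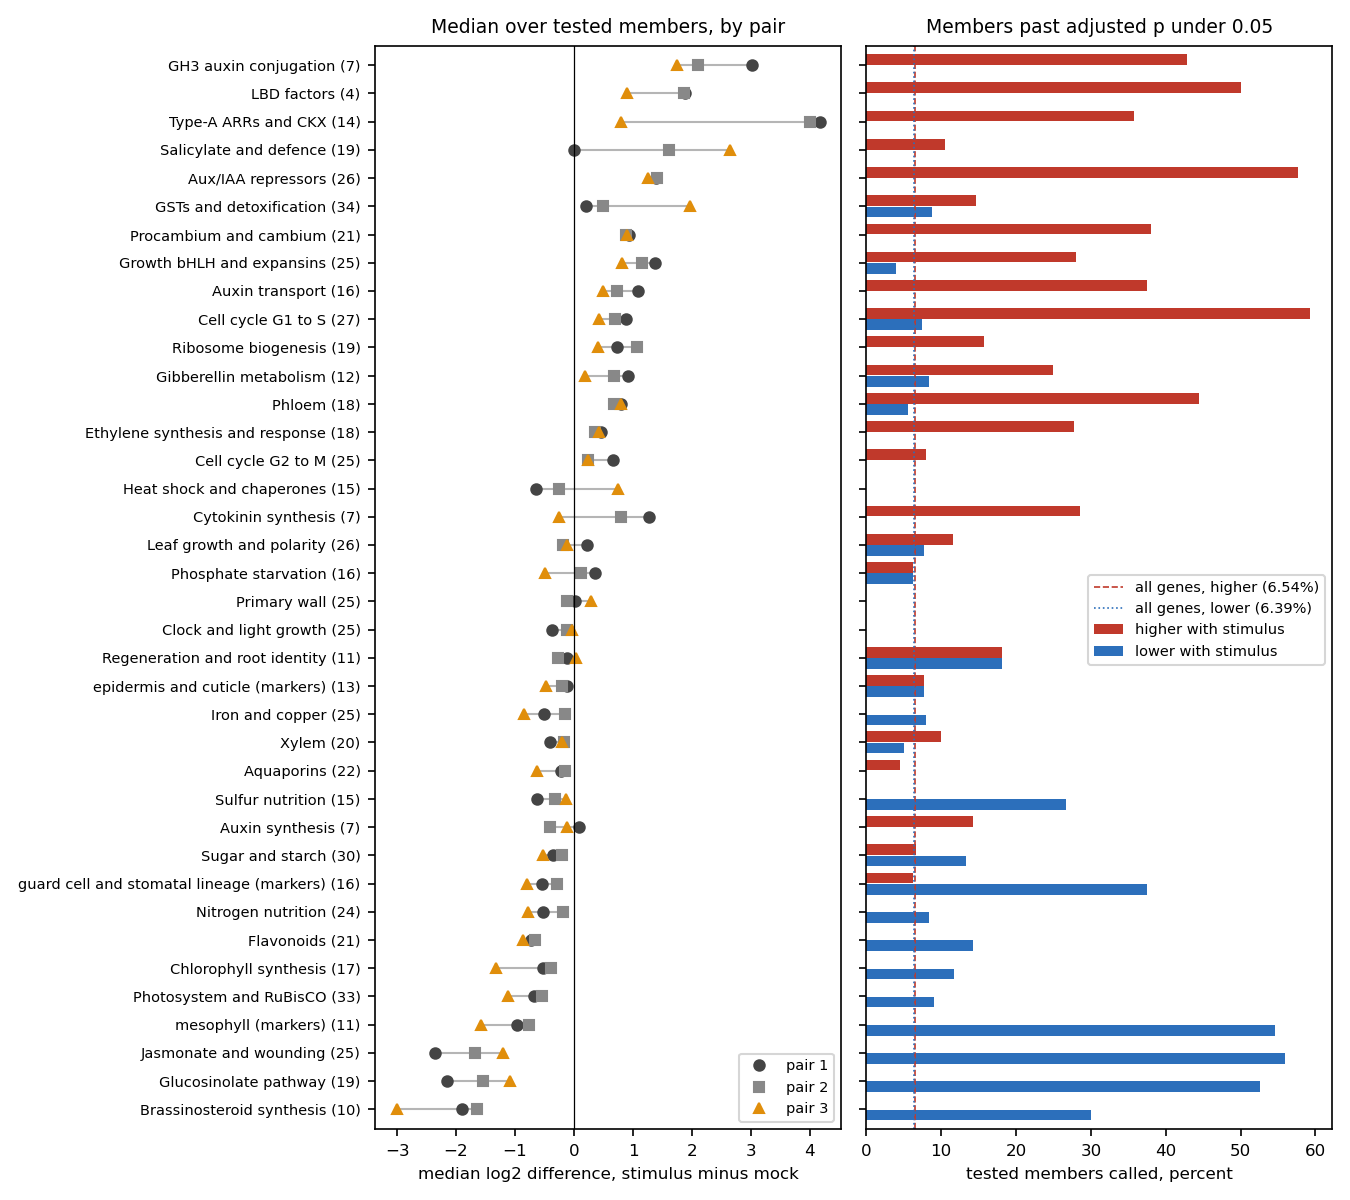
Left, median log2 CPM difference (stimulus minus mock) of each gene list in the 3 same-numbered pairs at 8 h; right, percent of tested members called higher (red) or lower (blue), with dashed and dotted lines at the shares of all genes. Numbers in brackets are members tested; the brassinosteroid synthesis list has pair medians of -1.90, -1.64 and -3.01, the list of cytokinin feedback genes 4.17, 4.01 and 0.79.

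Procambium genes mark the stem cells of the vasculature. Of 21 tested 8 rose and none fell (median 1.02), the medians in pairs 1, 2 and 3 were 0.93, 0.88 and 0.90, with the block 12 rose, and on replicates 1 and 2 alone 15 rose. TMO6, a Dof factor induced by auxin in the procambium, had 47.6, 60.5 and 77.4 CPM with stimulus and 4.96, 7.56 and 5.26 CPM in mock (3.38 ± 0.19, adjusted p = 5.08e-11). ATHB8 has been described above. DOF6, a factor of the same family as TMO6, had 4.6, 7.74 and 13.8 CPM with stimulus and 1.72, 2.52 and 3.99 CPM in mock (1.66 ± 0.39, adjusted p = 0.00598, and 0.0653 without stimulus replicate 3). In 11 of the 21 genes all stimulus libraries lay above all mock libraries, against 14.7% of all genes. In bulk leaf RNA more cells of a type and more RNA per cell cannot be told apart, here and in the lists that follow.

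The phloem list holds genes of developing and of mature phloem. Of 18 tested 8 rose and 1 fell (median 0.63), and 11 rose and 1 fell both with the block and on replicates 1 and 2 alone. Their summed level was 620, 610 and 629 CPM with stimulus and 292, 300 and 300 CPM in mock. BRX, a regulator of protophloem formation, had 27.5, 26.4 and 30.3 CPM with stimulus and 4.75, 7.09 and 4.1 CPM in mock (2.40 ± 0.30, adjusted p = 1.22e-05). CLE25, a peptide gene of the phloem lineage, had 11.4, 11 and 10.4 CPM with stimulus and 3.19, 3.28 and 3.06 CPM in mock (1.78 ± 0.22, adjusted p = 9.87e-06). SMXL5, which promotes phloem formation, had 163, 135 and 71.1 CPM with stimulus and 29.2, 37.2 and 18 CPM in mock (2.13 ± 0.57, adjusted p = 0.0161), with values of 0.0506, 0.0681 and 0.0567 without mock replicate 1, mock replicate 3 and stimulus replicate 1. FTIP1, which helps the florigen FT into the phloem, had 6.22, 6.02 and 6.03 CPM with stimulus and 9.96, 12.2 and 12.5 CPM in mock, and fell by 0.93 on the log2 scale (SE 0.23, adjusted p = 0.00849).

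Few xylem genes passed the test at 8 h. Of 20 tested 2 rose and 1 fell (median -0.34), with the block 2 rose and 3 fell, and on replicates 1 and 2 alone 2 rose and 4 fell. The shares of all genes were 6.54% and 6.39%, 17.2% and 16.0% with the block, and 18.2% and 16.8% on replicates 1 and 2. The summed level of the xylem list was 76.4, 88 and 97.4 CPM with stimulus and 81.9, 91.7 and 95.9 CPM in mock, so the groups overlapped. VND2, a NAC factor upstream of vessel formation, had 14, 12 and 10.9 CPM with stimulus and 4.65, 4.23 and 3.18 CPM in mock (1.61 ± 0.31, adjusted p = 0.00138). VND1 had 3.79, 2.49 and 4.06 CPM with stimulus and 2.02, 0.951 and 2.02 CPM in mock (1.05 ± 0.29, adjusted p = 0.019), and did not pass without mock replicate 2 (0.11), stimulus replicate 1 (0.0618) or stimulus replicate 3 (0.0857). The lignin regulator MYB63 fell by 2.52 on the log2 scale (SE 0.68, adjusted p = 0.0168), but not without mock replicate 2 (0.0569) or stimulus replicate 3 (0.0596). Among members that did not pass, chosen after their values were seen, the vessel regulator VND7 had 0.852, 1.2 and 0.655 CPM with stimulus and 0.809, 1.9 and 1.16 CPM in mock. The secondary wall synthase CESA8 had 7.63, 9.55 and 10.4 CPM with stimulus and 9.3, 11.1 and 10.4 CPM in mock.

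Many genes of DNA replication rose. Of 27 tested genes for entry into and passage through S phase 16 rose and 2 fell (median 0.74; 18 and 2 with the block and also on replicates 1 and 2). Leaving out 1 library gave 10 to 15 rises, with 10 without mock replicate 2. MCM6, a subunit of the replicative helicase, had 32.7, 35.9 and 24.7 CPM with stimulus and 11.8, 13.1 and 17.9 CPM in mock (1.13 ± 0.22, adjusted p = 0.00161). RNR1, the large subunit of ribonucleotide reductase, had 155, 165 and 180 CPM with stimulus and 59.5, 61.6 and 107 CPM in mock (1.13 ± 0.19, adjusted p = 0.000395). The highest fold change in the list, 1.61 ± 0.51 for the cyclin CYCD6;1, rested on overlapping groups, with 8.05, 8.82 and 3.6 CPM with stimulus and 1.92, 1.05 and 3.82 CPM in mock, and its adjusted p of 0.0381 became 0.0968 to 0.165 without mock replicate 1, mock replicate 2, stimulus replicate 1 or stimulus replicate 2. KRP1, an inhibitor of cyclin-dependent kinases, had 3.24, 3.74 and 2.62 CPM with stimulus and 9.71, 7.66 and 7.63 CPM in mock (-1.37 ± 0.25, adjusted p = 0.000665). Its relative KRP2 fell by 1.12 on the log2 scale (SE 0.36, adjusted p = 0.0409), but not without any single library other than stimulus replicate 2 (0.0541 to 0.195).

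Of 25 tested genes for G2 and mitosis 2 rose and none fell (median 0.34), near the 6.54% of all genes that rose. With the block 9 rose, as on replicates 1 and 2 alone, where 17.2% (block) and 18.2% (replicates 1 and 2) of all genes rose. The kinase CDKB1;1 had 8.18, 10.2 and 4.39 CPM with stimulus and 2.68, 4.14 and 1.91 CPM in mock (1.38 ± 0.42, adjusted p = 0.0304). The cyclin CYCA1;1 had 19.9, 22.1 and 9.56 CPM with stimulus and 7.38, 7.04 and 5.67 CPM in mock (1.36 ± 0.38, adjusted p = 0.0187). Both lost the call without mock replicate 3, stimulus replicate 1 or stimulus replicate 2, CDKB1;1 also without mock replicate 1 and CYCA1;1 also without mock replicate 2, with adjusted p up to 0.125 for CDKB1;1 and 0.0814 for CYCA1;1. Whether the S phase and mitotic lists differ from each other was not tested.

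Genes for ribosome assembly lay above 0 in all 19 tested members (0.13 to 1.14), yet only 3 rose by the test. With the block 15 rose, on replicates 1 and 2 alone 18 rose, and without mock replicate 3 alone 9 rose. FIB2, a nucleolar methyltransferase, had 49.4, 52.1 and 63.7 CPM with stimulus and 23.6, 16.5 and 34.7 CPM in mock (1.14 ± 0.23, adjusted p = 0.00155). NSN1, a nucleolar GTPase, had 65.8, 57.1 and 73.8 CPM with stimulus and 34.6, 30.9 and 44.6 CPM in mock (0.84 ± 0.17, adjusted p = 0.00175). For both genes mock replicate 3 was the highest mock library and the groups did not overlap. Their loci overlap others on the same strand that hold fewer counts.

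Jasmonate genes fell in large part. Of 25 tested 14 fell and none rose (median -1.71), with the block 18 fell, and on replicates 1 and 2 alone 23 fell. Leaving out 1 library gave 8 to 16 falls, with under 10 without mock replicate 1, stimulus replicate 1 or stimulus replicate 2. After VSP2 the deepest falls that passed were those of VSP1 and ORA47. VSP1 had 0.0852, 0.129 and 0.0655 CPM with stimulus and 14.1, 7.75 and 0.983 CPM in mock (-6.22 ± 1.66, adjusted p = 0.0152). ORA47, a regulator of jasmonate synthesis, had 0.256, 0.258 and 0.197 CPM with stimulus and 14.8, 5.28 and 3.82 CPM in mock (-5.02 ± 1.33, adjusted p = 0.0148). Mock replicate 1 was the highest mock library for both, and without mock replicate 1 or any stimulus library their adjusted p-values lay between 0.0506 and 0.063.

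Glucosinolate genes, which make the mustard oil glucosides of this plant family, fell too. Of 19 tested 10 fell and none rose (median -2.17), with the block 13 fell and 1 rose, and on replicates 1 and 2 alone 17 fell and 1 rose. CYP79F1, which commits methionine derivatives to the pathway, had 1.11, 0.43 and 0.328 CPM with stimulus and 9.56, 8.32 and 2.83 CPM in mock (-3.42 ± 0.80, adjusted p = 0.00624). MYB29, a regulator of the same branch, had 0.128, 0.344 and 0 CPM with stimulus and 1.92, 2.66 and 2.77 CPM in mock (-3.80 ± 1.06, adjusted p = 0.0199). BCAT4, the first enzyme of methionine chain elongation, had 0.597, 0.43 and 0.262 CPM with stimulus and 4.1, 3.23 and 0.694 CPM in mock (-2.59 ± 0.74, adjusted p = 0.0219). MYB29 lost its call without stimulus replicate 1 (0.0731) or stimulus replicate 3 (0.0842), and BCAT4 without mock replicate 1, mock replicate 2, stimulus replicate 2 or stimulus replicate 3 (0.0621 to 0.0943). Without stimulus replicate 3 alone 6 members of the list fell.

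**Figure D4:**
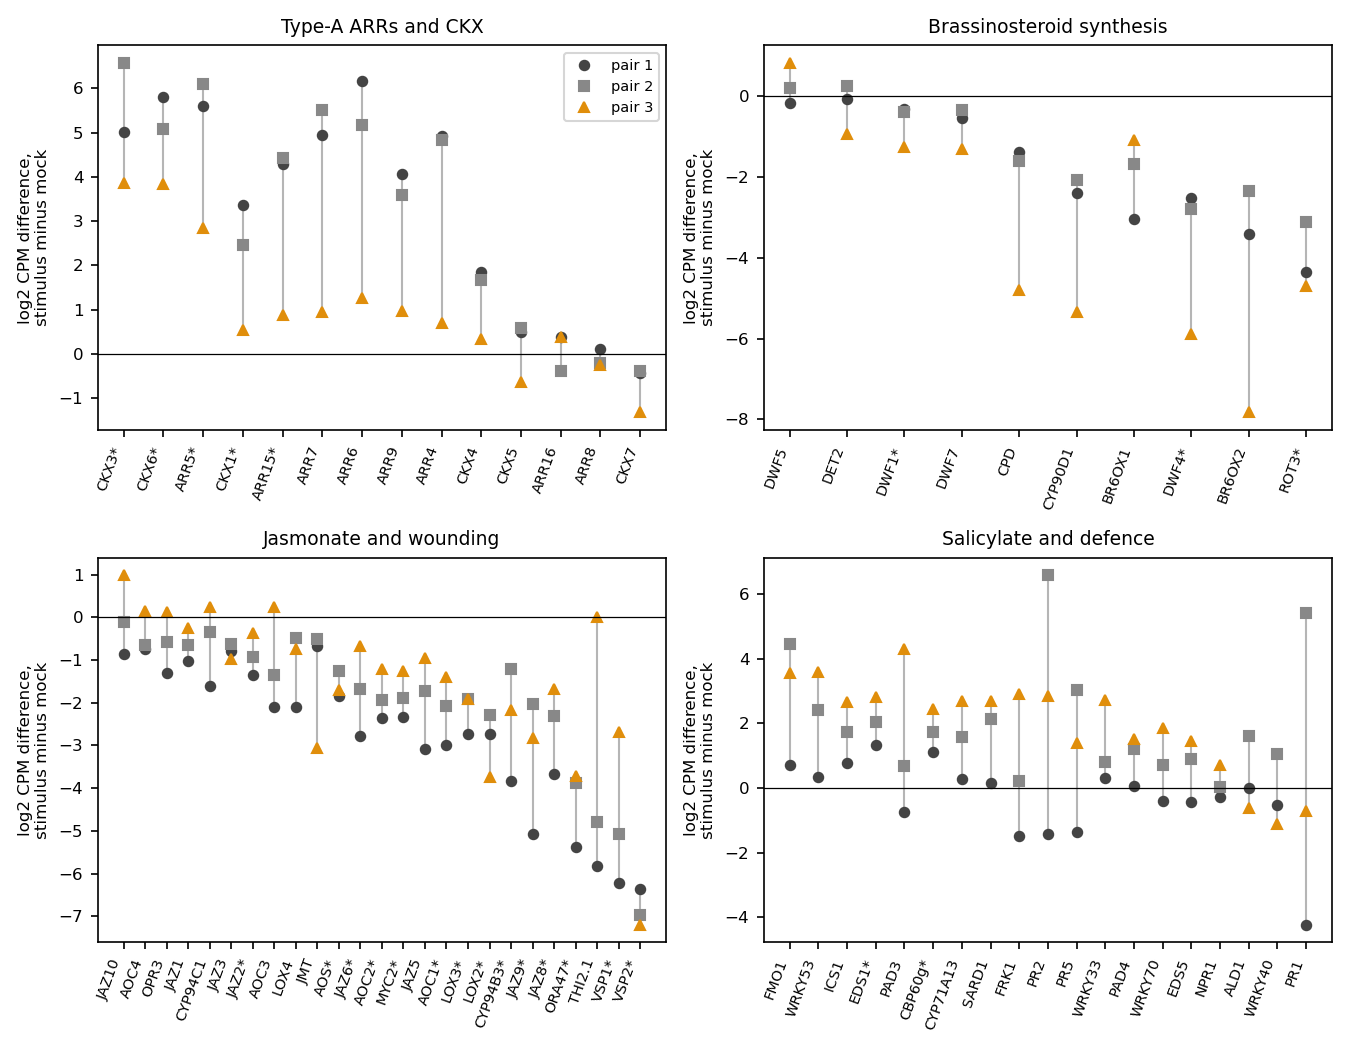
Log2 CPM difference between stimulus and mock at 8 h in pairs 1, 2 and 3, for each tested gene of 4 lists; an asterisk marks genes past adjusted p of 0.05. Pair 3 lies below the other 2 pairs for most type-A response regulators, while the pair medians of the salicylate and defence list are 0.00, 1.62 and 2.65.

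Salicylate and defence genes varied from pair to pair. Of 19 tested 2 rose and none fell (median 1.36), 4 rose with the block and also on replicates 1 and 2 alone, and the pair medians were 0.00, 1.62 and 2.65. In 8 of them all stimulus libraries lay above all mock libraries, against 14.7% of all genes. Of all genes 6.54% rose in the main test, 17.2% with the block and 18.2% on replicates 1 and 2. EDS1, a hub of basal immunity, had 80.5, 84.7 and 154 CPM with stimulus and 32.1, 20.5 and 21.8 CPM in mock (2.1 ± 0.43, adjusted p = 0.00225). CBP60g, an activator of salicylate synthesis, had 35.9, 33.3 and 39 CPM with stimulus and 16.3, 9.89 and 7 CPM in mock (1.70 ± 0.54, adjusted p = 0.0394), but did not pass without any single library other than mock replicate 1 (0.0663 to 0.134). The defence marker PR1, chosen after its values were seen, had 0.0852, 4.34 and 5.31 CPM with stimulus and 3.44, 0 and 8.79 CPM in mock, with no common direction. Of 15 heat shock and chaperone genes none passed the test by edgeR (2 at an unadjusted p under 0.05) or DESeq2, and 1 rose and 1 fell with the block. Their pair medians were -0.65, -0.26 and 0.74.

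For glutathione transferases and other detoxifying enzymes pair 3 had the largest median difference. Of 34 tested 5 rose and 3 fell (median 1.11), with the block 10 and 5, and on replicates 1 and 2 alone 11 and 9. Among all genes 6.54% rose and 6.39% fell, 17.2% and 16.0% with the block, and 18.2% and 16.8% on replicates 1 and 2. The pair medians were 0.21, 0.49 and 1.97. GSTU1 had 5.07, 5.03 and 56.6 CPM with stimulus and 2.22, 0.523 and 2.37 CPM in mock (3.70 ± 1.12, adjusted p = 0.0303, and 0.0632 to 0.415 without any mock library or stimulus replicate 3). OPR1 had 69.5, 82.4 and 371 CPM with stimulus and 29.5, 29.1 and 19.3 CPM in mock (2.75 ± 0.74, adjusted p = 0.0164, and 0.0504 to 0.201 without mock replicate 2, mock replicate 3 or stimulus replicate 3), and its locus overlaps another on the same strand. GSTU25 followed at 2.76 ± 0.74 (adjusted p = 0.0158, and 0.0515 to 0.139 without mock replicate 1, mock replicate 3 or stimulus replicate 3). Of the 5 rises, 0 passed without stimulus replicate 3 or mock replicate 3, and 1 passed without mock replicate 1 or mock replicate 2. Among the falls, GSTU27 had 2.86, 4.34 and 4.06 CPM with stimulus and 15, 13.7 and 24.5 CPM in mock (-2.24 ± 0.32, adjusted p = 5.55e-05), and GSTU20 fell by 1.56 on the log2 scale (SE 0.30, adjusted p = 0.00119). GSTU18 had 5.07, 5.89 and 2.16 CPM with stimulus and 12.4, 14.4 and 19.2 CPM in mock (-1.79 ± 0.44, adjusted p = 0.00858, and 0.0579 without stimulus replicate 3), and its locus overlaps one with more counts on the same strand.

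Few photosynthesis genes passed the test at 8 h, all of them lower with stimulus. Of 33 tested genes for photosystems and RuBisCO 3 fell and none rose (median -0.83), against 6.39% of all genes that fell. But 13 fell with the block and 21 on replicates 1 and 2 alone, where 16.0% and 16.8% of all genes fell. Leaving out mock replicate 3 or any stimulus library left as few as 1 member of the list that fell. RBCS2B, a small subunit of RuBisCO, had 385, 482 and 384 CPM with stimulus and 1195, 1250 and 2140 CPM in mock (-1.87 ± 0.34, adjusted p = 0.000682), and near-identical relatives may share its reads. RCA, RuBisCO activase, had 494, 560 and 598 CPM with stimulus and 997, 1017 and 2038 CPM in mock (-1.30 ± 0.38, adjusted p = 0.0267, and 0.0689 to 0.162 without mock replicate 3 or any stimulus library). Mock replicate 3 was the highest library in both. Of 17 genes for chlorophyll synthesis 2 fell and none rose (median -0.80; 9 fell with the block and 8 on replicates 1 and 2). GLK1, which activates photosynthesis genes in the nucleus, had 20.1, 24.9 and 14.7 CPM with stimulus and 94.6, 106 and 143 CPM in mock (-2.52 ± 0.30, adjusted p = 6.39e-06). CHLM, a methyltransferase of the pathway, fell by 1.32 on the log2 scale (SE 0.39, adjusted p = 0.0287), but not without mock replicate 3 or any stimulus library (0.0558 to 0.175).

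Markers of mesophyll and of the stomatal lineage fell in part. Of 11 mesophyll markers, which include some of the genes just named, 6 fell and none rose (9 with the block and on replicates 1 and 2, as few as 3 without mock replicate 3 or stimulus replicate 3), and their summed level was 9559, 10586 and 12288 CPM with stimulus and 15074, 16490 and 25501 CPM in mock. CA1, a carbonic anhydrase, had 191, 247 and 238 CPM with stimulus and 490, 501 and 770 CPM in mock (-1.38 ± 0.28, adjusted p = 0.00215). Of 16 markers of guard cells and the stomatal lineage 6 fell and 1 rose (9 and 1 with the block, 8 and 1 on replicates 1 and 2), and the sum was 174, 195 and 199 CPM with stimulus and 247, 242 and 309 CPM in mock. The largest fall was that of EPF2. EPF2, the peptide of early stomatal precursors, had 0.298, 0.602 and 0 CPM with stimulus and 4.1, 4.8 and 7.34 CPM in mock (-4.05 ± 0.74, adjusted p = 0.000802). BASL, which marks the pole of their asymmetric divisions, had 0.384, 0.301 and 0.59 CPM with stimulus and 2.53, 3.04 and 2.37 CPM in mock (-2.65 ± 0.46, adjusted p = 0.000477). POLAR fell by 2.49 on the log2 scale (SE 0.56, adjusted p = 0.00483). The 1 rise was that of the potassium channel KAT2 (0.89 ± 0.25, adjusted p = 0.0198), lost without mock replicate 3 (0.0927) or stimulus replicate 2 (0.091). Of 13 epidermis and cuticle markers 1 rose and 1 fell (1 and 3 with the block and on replicates 1 and 2), about the 6.54% and 6.39% of all genes: the wax enzyme CER1 rose by 1.05 ± 0.25 (adjusted p = 0.00599) and CER3 fell by 0.79 (SE 0.16, adjusted p = 0.0016). The part of such markers in the other results was not tested.

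Of 26 genes tested for leaf growth and polarity 3 rose and 2 fell (median 0.05), near the 6.54% and 6.39% of all genes. With the block 6 rose and 6 fell, against 17.2% and 16.0% of all genes. AN3, a coactivator of leaf cell proliferation, had 3.88, 4.39 and 6.42 CPM with stimulus and 0.91, 0.809 and 1.1 CPM in mock (2.37 ± 0.42, adjusted p = 0.000509). The differentiation factor TCP10 had 22.9, 26.7 and 18.9 CPM with stimulus and 42.1, 48.1 and 47.8 CPM in mock (-1.01 ± 0.20, adjusted p = 0.00202). The other 3 called genes were ANT and ARL, which rose by 1.73 each, and YAB3, which fell by 0.74. Of these, ANT lost the call without mock replicate 1, mock replicate 3, stimulus replicate 1 or stimulus replicate 2 (up to 0.0603) and ARL and YAB3 without stimulus replicate 3 (0.0584 and 0.0713). Of 11 tested genes for regeneration and root identity 2 rose and 2 fell, or 2 and 3 with the block. On replicates 1 and 2 alone 3 rose and 2 fell, where 18.2% and 16.8% of all genes did. WOX11, a founder gene of adventitious roots, had 15 to 16 counts in stimulus replicates 1 and 2, 2 counts in replicate 3 and none in mock, where 3 counts over the group would make the level at least 10.3-fold higher with stimulus (adjusted p = 0.0108). CUC3, a boundary gene, had no count with stimulus and 22 in the 3 mock libraries, at least 7.82-fold lower by the same limit (adjusted p = 0.00761). PLT7 rose by 1.30 ± 0.31 (adjusted p = 0.00718), while the fall of SCR (adjusted p = 0.0495) was lost without any single library other than mock replicate 3.

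Among metabolic and nutrient lists few members passed, and the falls in the sugar, flavonoid, nitrogen, iron and phosphate lists went down to 0 or 1 without some single library. Over all genes 6.54% rose and 6.39% fell, or 17.2% and 16.0% with the block. Of 30 genes for sugar and starch 2 rose and 4 fell (median -0.55), or 4 and 11 with the block. TPS11, a class II trehalose phosphate synthase, had 57.2, 56.3 and 106 CPM with stimulus and 4.7, 4.99 and 5.72 CPM in mock (3.83 ± 0.38, adjusted p = 4.15e-07). The beta-amylase genes BAM5 and BAM3 fell by 2.39 and 1.35 on the log2 scale (adjusted p = 0.0193 and 0.0323). Both lost the call without mock replicate 3 (0.0901 and 0.12), stimulus replicate 1 or stimulus replicate 2. In the flavonoid list 3 of 21 fell and none rose (12 fell with the block), among them PAL2, the entry enzyme of phenylpropanoids, with 186, 207 and 183 CPM with stimulus and 419, 422 and 449 CPM in mock (-1.17 ± 0.26, adjusted p = 0.00483). In the sulfur list 4 of 15 fell and none rose, among them the sulfate transporter SULTR2;1, with 3.32, 2.62 and 1.51 CPM with stimulus and 7.84, 9.18 and 10.8 CPM in mock (-1.88 ± 0.42, adjusted p = 0.00445). Of 22 aquaporins 1 rose and none fell, or 1 and 8 with the block; the vacuolar channel TIP2;1 had 84.7, 94.1 and 103 CPM with stimulus and 12.5, 17.4 and 43.6 CPM in mock (1.94 ± 0.44, adjusted p = 0.00504).

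In the remaining lists no more than 2 members moved either way, against 6.54% of all genes that rose and 6.39% that fell. With the block these shares were 17.2% and 16.0%. Of 24 nitrogen genes 2 fell and none rose (1 rose and 10 fell with the block), of 25 iron and copper genes 2 fell and none rose (7 fell with the block), and of 16 phosphate genes 1 rose and 1 fell (3 and 1 with the block). SPX3, a phosphate starvation gene, had 2.43, 1.81 and 0.59 CPM with stimulus and 0.253, 0.238 and 0.347 CPM in mock (2.53 ± 0.62, adjusted p = 0.0083). Of 25 clock and light genes none passed the test by edgeR (4 at an unadjusted p under 0.05), DESeq2 called 1 higher and 2 lower, and with the block 1 rose and 5 fell.

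The effect at 8 h was also set against the mean effect at 6, 7, 9 and 10 h. No gene passed that test in edgeR or DESeq2, in either direction, with 135 and 160 genes at an unadjusted p under 0.05. Across the 21052 genes the mean log2 differences at 8 h and at the other hours had a Pearson r of 0.945, which is a description across genes that share libraries of the same kind and are not independent. Of the 2722 genes called at 8 h, 2701 (99.2%) had the same sign of difference at all 5 hours, against 14451 (68.6%) of all genes. These 5 hours include 8 h, and the calls used a spread from all 30 libraries. The higher share therefore follows in part from the choice and is no separate support. GH3.3 differed by 9.56, 9.32, 9.94, 9.23 and 8.78 on the log2 scale at 6, 7, 8, 9 and 10 h. VSP2 differed by -6.36, -5.92, -6.84, -6.76 and -6.00, and ATHB8 by 1.77, 1.97, 2.04, 2.13 and 2.22. A missed threshold does not show that 8 h equals the other hours, and the columns of mock replicate 3 at 6 h and 7 h, which enter the comparison, were identical.

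**Figure D5:**
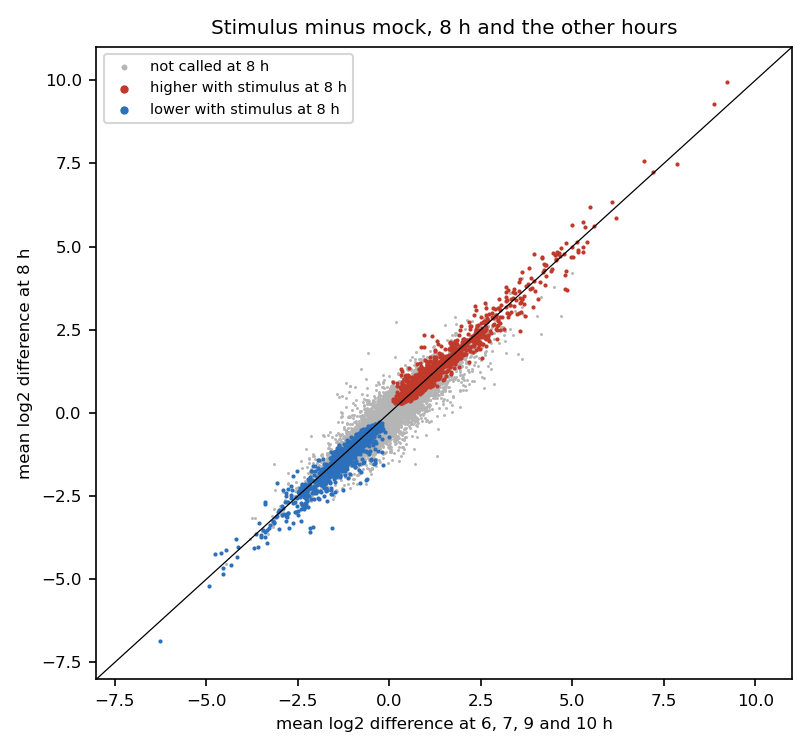
Mean log2 CPM difference (stimulus minus mock) at 8 h against the mean of the differences at 6, 7, 9 and 10 h, for 21052 genes; the line marks equal values. Genes called higher (red) or lower (blue) at 8 h lie along the line, and no gene passed the test of the difference.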

How the data were processed

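Ribosome-depleted, strand-specific RNA libraries were analysed. The authors deposited raw counts per locus for 38194 loci and 30 libraries, per the file headers, and all 30 columns matched a sample. BWA and the TAIR10 build are named in the submitters' processing notes; which program counted reads, and on which annotation, is not given in the sources used here. Names came from RefSeq records of TAIR10.1 by locus tag (37751 of 38194 loci), so no coordinates or sequences are given. Loci that overlap on the same strand share reads and are uncertain.

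Loci were filtered with filterByExpr, scaled by TMM and fitted with edgeR 4.0.16 in R 4.3.3 by quasi-likelihood, with a separate mean for each treatment and hour. All 30 libraries entered, which hold 29 distinct columns because mock replicate 3 at 6 h and 7 h is identical. Contrasts were stimulus minus mock at 8 h, and that difference minus its mean at the other 4 hours. P-values were Benjamini-Hochberg adjusted over all 21052 genes, with a threshold of 0.05. Standard errors were the absolute log2 fold change over the square root of F. CPM values use TMM library sizes, and log2 CPM a prior count of 2. Intervals and the limit of 3 counts cover counting error only. The script was tested on simulated counts.

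The 39 gene lists have 828 names, of which 799 matched a locus and 720 were tested; some genes are in more than 1 list. Lists and members were chosen with earlier results of these data known. Named genes were taken among called genes with a mean log2 CPM of at least 1 and 1 sign in all 3 pairs: the 10 largest and 10 smallest log2 fold changes, then the 5 smallest p-values each way among the rest. Up to 3 called members each way per list were added, at any level. Others are said to be chosen afterwards. A gene that the rule names is not reported here.

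Deviations from group means correlated between libraries of the same number by 0.207, 0.297 and 0.435 at 8 h. Stimulus replicate 1, however, correlated most with mock replicate 2 (0.445). The main fit, with its calls, standard errors and p-values, took no account of the replicate number. Libraries of the same number were compared only in the pair differences and in the fits with the replicate block. Alternatives were DESeq2 1.42.0, its size factors, other count filters, nuclear loci only, a replicate block, fewer libraries and each library left out.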

Additional observations from a re-analysis of the deposited data

How the results depend on the processing

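Counts of genes that rose and fell stayed within 1.5 times of 1376 and 1346 under DESeq2, its size factors, both other count filters, nuclear loci only and removal of the identical mock columns. They were 3617 and 3360 with the replicate block, 3836 and 3538 on replicates 1 and 2, 407 and 306 on the 8 h libraries alone, and 901 and 847 on those libraries with the replicate block; the fits to 8 h alone have fewer samples to estimate the spread. Leaving out 1 library gave 918 to 1337 rises and 614 to 1013 falls, with 614 without stimulus replicate 3. The comparison of 8 h with the other hours gave 0 genes each way in all the fits made; it could not be made from the 8 h libraries alone. None of the 124 named genes changed sign under any alternative. All 124 were called with the replicate block, on replicates 1 and 2, with DESeq2, with its size factors and on nuclear loci only, and 75 without any single library. The calls of 51 of 122 were lost on the 8 h libraries alone, 22 of 122 on those libraries with the replicate block, 9 with no count filter and 2 without the identical columns; the cause was not tested. For genes with few counts in a group, depth limits the size of the fold change.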

Other observations

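Members of the SAUR family, small auxin-induced proteins tied to cell expansion, were taken by their annotated product after the values had been seen. Of 52 tested 22 rose and 3 fell (26 and 6 with the replicate block, 28 and 5 on replicates 1 and 2), with a median log2 fold change of 1.28. Over all genes 6.54% rose and 6.39% fell, or 17.2% and 16.0% with the block. SAUR63 had 29, 27.6 and 38.2 CPM with stimulus and 1.62, 1.09 and 3.3 CPM in mock (3.99 ± 0.42, SE, adjusted p = 1.1e-06). SAUR68 had 19.7, 16.3 and 16.3 CPM with stimulus and 1.01, 1.09 and 1.97 CPM in mock (3.69 ± 0.36, adjusted p = 4.15e-07). The 3 members that fell were AT1G20470, AT3G60690 and AT3G09870, and AT3G09870 had 0.0426, 0.129 and 0 CPM with stimulus and 1.87, 0.999 and 1.27 CPM in mock. Several SAUR genes lie in groups of near-identical copies, so reads may be split among them.

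Histone genes, chosen the same way, rose in large part. Of 41 tested 28 rose and none fell (33 and 0 with the replicate block), against 6.54% of all genes that rose (17.2% with the block). The pair medians were similar, at 1.16, 1.17 and 1.10, but fold changes ran from -0.57 to 1.93 on the log2 scale. Among members that did not pass, AT4G40030, AT4G40040 and HTA7 lay at 0.05, 0.04 and 0.01. AT5G10390 had 37.2, 39.1 and 32.2 CPM with stimulus and 9.15, 10.6 and 8.61 CPM in mock (1.93 ± 0.17, adjusted p = 6.08e-08). RAT5 had 31.2, 37.9 and 40.7 CPM with stimulus and 9.96, 11.6 and 9.19 CPM in mock (1.84 ± 0.19, adjusted p = 8.18e-07). Copies of histone genes are near-identical, so values of single genes are uncertain.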
